A study of Homo sapiens with 64 samples.

Results

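Wnt feedback and crypt target genes are transcribed when β-catenin reaches the nucleus and joins TCF factors on DNA, and most of them then limit the signal that switched them on. In the normal colon their RNA is highest at the crypt base, where stem cells and Wnt ligands lie, and in most colorectal cancers the pathway is switched on by loss of APC or by stabilized β-catenin. The 10 genes described here were AXIN2, NKD1, RNF43, ZNRF3, LGR5, NOTUM, APCDD1, ASCL2, SP5 and TCF7, chosen by name from what is known of the pathway. Earlier results of these data were known when the genes were chosen. They were found as 10 of the 54127 genes counted in each of the 64 samples.

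RNA sequencing counted reads per gene in spheroids of 6 human colorectal cancer cell lines grown without serum, with EGF and bFGF, in flasks to which cells do not attach. Cells were loaded with CFSE, a dye that is halved at each division, and sorted on day 6 into label-retaining cells (LRCs, CFSE high) and the remaining non-LRCs, with 4 replicates of each population from HT55 and SW948 (subtype CCS1), RKO and SW48 (CCS2), and DLD1 and HCT15 (CCS3). A further 16 samples were unsorted spheroid cells labeled as DLD1, either CFSE-loaded or DMSO-treated without dye, on day 1 and on a late day that the sample labels give as day 5 and the design text as day 6, with 4 replicates of each. HT55, SW948, DLD1 and HCT15 are known for truncated APC, SW48 for stabilized β-catenin with intact APC, and RKO for intact APC and CTNNB1. DLD1 and HCT15 were derived from the same patient's tumor. Each line is 1 cell population, so the 4 replicates of a group measured the spread between cultures of that line and not between tumors. Reads counted on genes ranged from 12237225 to 20913455 per sample (median 15063858), and no 2 samples held identical counts.

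The libraries labeled as unsorted DLD1 did not resemble the sorted DLD1 cells. Of 353 genes that lay at least 3 log2 units apart between sorted DLD1 and HCT15 non-LRCs, 82.4% to 99.7% in the 16 control libraries were nearer to HCT15, and all 16 had a higher Pearson's r of log2 levels with HCT15 than with DLD1 non-LRCs (0.945 to 0.993 against 0.915 to 0.955). LGR5 followed the same split, with 46.3, 37, 60.4 and 53.3 CPM (gene counts scaled to a fixed library size) in the sorted DLD1 non-LRCs, at most 0.240 CPM in HCT15 non-LRCs and at most 1.43 CPM in any control library. The control libraries are called the libraries labeled DLD1 below, and beyond this check no value of theirs was compared with sorted DLD1. Replicate 4 of the unlabeled day 1 group was also nearer to the unlabeled late group (r = 0.994) than to the mean of its own group (r = 0.978), so the control results it touches are given with and without it. In all, 11 of the 64 libraries were nearer to the mean of another group than to that of their own. Among them were replicates 3 and 4 of CFSE-loaded day 1, nearer to the unlabeled day 1 group (r = 0.990 and 0.991) than to their own (r = 0.988 and 0.989), replicate 4 of the SW948 LRCs, nearer to SW948 non-LRCs (r = 0.997 against 0.990), and replicate 2 of the HT55 non-LRCs, nearer to HT55 LRCs (r = 0.993 against 0.988). In HCT15, non-LRC replicate 2 lay nearer to the LRCs (r = 0.993 against 0.992) and LRC replicate 4 nearer to the non-LRCs (r = 0.994 against 0.991). Unlabeled late replicate 4 lay nearer to sorted HCT15 non-LRCs (r = 0.992 against 0.989). HT55 LRC replicates 2 and 3 and SW48 LRC replicate 2 lay nearer to the non-LRCs of their line. The summed epithelial markers were lowest in RKO, whose level of 9 markers was 217 to 253 CPM in non-LRCs against 2679.7 to 3796 CPM in SW48, the next lowest line, and in which CDH1, KRT19, KRT20, VIL1 and LGALS4 were each under 1 CPM on average in non-LRCs. KRT20 and LGALS4 were also under 1 CPM in both SW48 populations. The 10 markers of stroma, vessel and blood cells summed to at most 24.3 CPM in RKO, SW48, DLD1 and HCT15, and to 45.3 to 95.2 CPM in HT55 LRCs and 1081 to 1638 CPM in SW948 LRCs, where lysozyme (LYZ) made up nearly all of the sum.

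Promoters were searched for the core letters that TCF factors read, CTTTGA and CTTTGT on the given strand or TCAAAG and ACAAAG for the other strand, in windows of 300 bases, 250 before to 50 after each gene start (RefSeq, GRCh38.p14). The table held 35116 such windows and matched 4 of the 10 genes, SP5, RNF43, TCF7 and APCDD1. SP5, a zinc finger factor that is itself a widely used Wnt target, had 4 matches in its window, a number reached or passed by 0.111% of all windows. RNF43 had 1 match at each of 2 starts, TCF7 had 2 matches at one start and 0 at the other, and APCDD1 had 0. At least 1 match stood in 26.2% of all windows and at least 2 in 5.33%. A match describes letters only and is no measurement of binding. The SP5 window, one RNF43 window and the TCF7 window with matches are printed 5′ to 3′ on the gene's strand, with the matches in capitals, because these 3 genes recur in the comparisons below.
SP5, chr2:170715087-170715386, forward strand: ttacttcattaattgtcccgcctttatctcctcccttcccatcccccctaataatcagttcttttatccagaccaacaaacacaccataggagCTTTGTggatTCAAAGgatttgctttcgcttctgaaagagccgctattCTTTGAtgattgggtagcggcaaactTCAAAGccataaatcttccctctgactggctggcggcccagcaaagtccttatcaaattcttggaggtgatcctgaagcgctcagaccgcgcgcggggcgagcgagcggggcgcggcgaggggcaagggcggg
RNF43, chr17:58417485-58417784, reverse strand: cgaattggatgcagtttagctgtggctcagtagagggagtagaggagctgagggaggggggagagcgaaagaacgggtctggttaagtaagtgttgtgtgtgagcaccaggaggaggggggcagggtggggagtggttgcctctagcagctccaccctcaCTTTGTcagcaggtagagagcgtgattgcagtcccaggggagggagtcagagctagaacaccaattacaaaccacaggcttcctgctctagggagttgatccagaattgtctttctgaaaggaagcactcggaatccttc
TCF7, chr5:134123368-134123667, forward strand: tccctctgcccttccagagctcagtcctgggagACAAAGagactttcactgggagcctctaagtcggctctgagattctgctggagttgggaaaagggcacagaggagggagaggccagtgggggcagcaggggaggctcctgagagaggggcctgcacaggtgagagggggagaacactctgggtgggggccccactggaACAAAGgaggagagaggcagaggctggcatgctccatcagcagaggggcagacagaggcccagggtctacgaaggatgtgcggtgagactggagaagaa

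The genes lie, on GRCh37, at chr17:63524681-63557766 (AXIN2), chr16:50582307-50683160 (NKD1), chr17:56431037-56494956 (RNF43), chr22:29279560-29453476 (ZNRF3), chr12:71833578-71980090 (LGR5), chr17:79910383-79919716 (NOTUM), chr18:10454632-10489946 (APCDD1), chr11:2289728-2291818 (ASCL2), chr2:171571847-171574588 (SP5) and chr5:133450372-133487556 (TCF7), and reads were counted over their exons. Levels ranged widely between lines, with HT55 mostly high and RKO mostly low. All 10 differed between the 6 lines in non-LRCs (edgeR quasi-likelihood test over 24 samples, adjusted over all genes tested), but so did 98.3% of the 15779 genes tested, so the count sets these genes apart from no others. Of the 150 tests of 1 gene between 2 lines, 137 passed in non-LRCs, a share to be read beside 71.1% over all genes and pairs, and 141 passed in LRCs beside 69.9%. RKO was the lower line in 46 of its 50 tests and the higher in 1, and HT55 the higher in 43 of its 50 and the lower in 4. In LRCs the corresponding counts were 46 and 3 for RKO, and 45 and 3 for HT55. In bulk RNA, fewer cells with a transcript and less transcript per cell cannot be told apart.

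**Figure D1:**
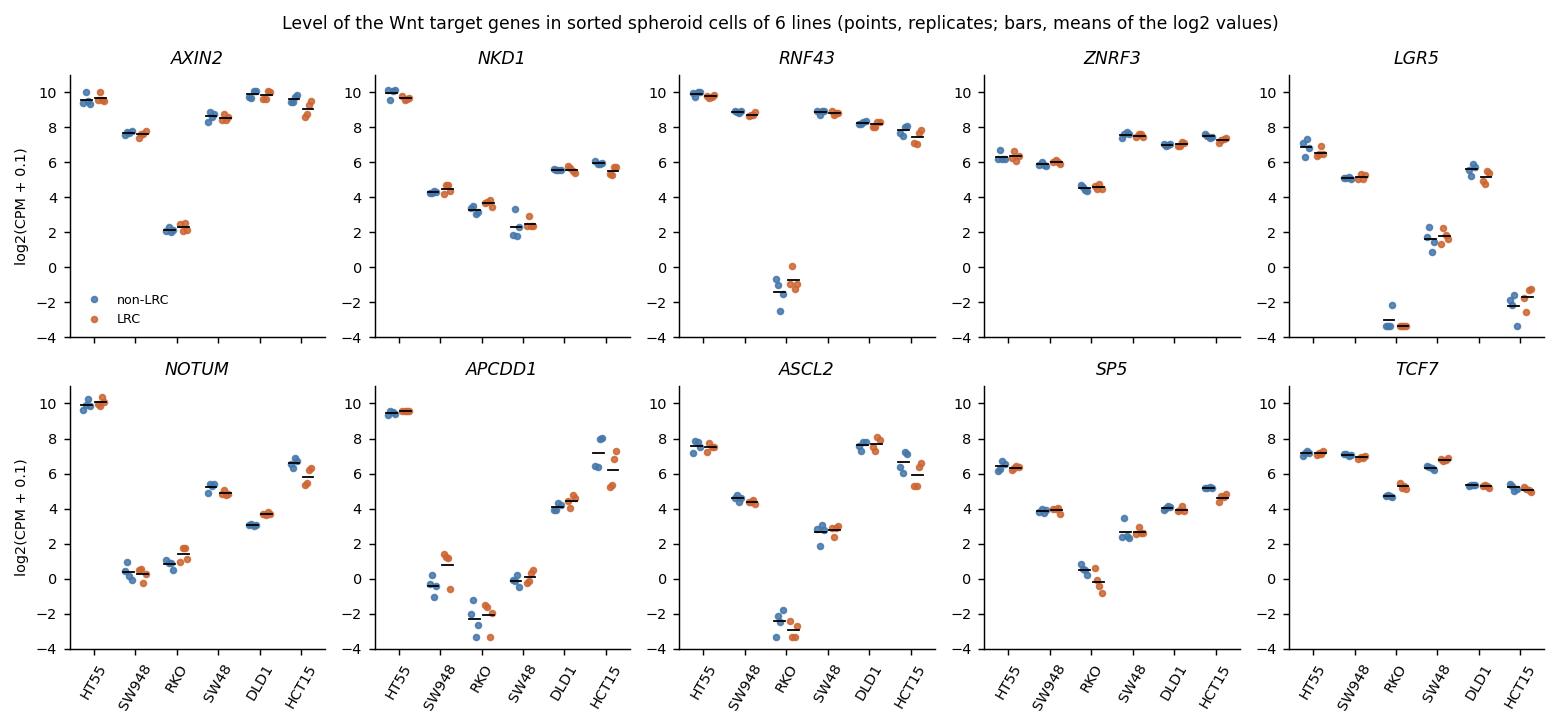
Levels of the 10 genes as log2(CPM + 0.1), one panel per gene, in the 6 lines (horizontal axis), with non-LRCs in blue, LRCs in orange, 4 replicates as points and a bar at the mean of the log2 values. RKO lies lowest or next to lowest in every panel, and HT55 highest for NKD1, RNF43, LGR5, NOTUM, APCDD1, SP5 and TCF7.

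AXIN2, a scaffold of the complex that destroys β-catenin and the most general readout of the pathway, gave 850.3, 811, 1080.4 and 1059.7 CPM in the 4 DLD1 non-LRC samples. HCT15 non-LRCs held 692, 691, 843 and 904 CPM and HT55 non-LRCs 658, 1007, 731 and 631 CPM. These 3 lines overlapped, and neighbors in the order of means did not pass the test (DLD1 against HCT15 adjusted p = 0.0694, HCT15 against HT55 adjusted p = 0.881), while DLD1 was higher than HT55 (adjusted p = 0.0353). SW48 followed at 395 ± 60.5 CPM (SD, n = 4) and SW948 at 207 ± 15.6 CPM. RKO stood apart from all of them with 4.06, 4.73, 3.92 and 4.32 CPM, 5.6 ± 0.18 log2 units below SW948 (edgeR, adjusted p = 5.64e-20).

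NKD1, which binds Dishevelled and damps the signal inside the cell, had a different order. It was high in HT55 alone, at 1132, 738, 1072 and 1094 CPM in non-LRCs, and the next line, HCT15, held 61.4 ± 3.91 CPM (edgeR, adjusted p = 3.56e-16). HCT15 and DLD1 (47.3 ± 0.699 CPM) did not pass the test against each other (adjusted p = 0.0863). The lowest line was SW48, not RKO, with 3.42, 9.96, 3.35 and 4.76 CPM against 10.4, 11.3, 8.07 and 8.64 CPM (adjusted p = 0.00160). The 4 SW48 values were uneven, and replicate 2 reached the lower RKO values.

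RNF43 and ZNRF3 are membrane ubiquitin ligases that remove Frizzled receptors, and LGR5 is the R-spondin receptor that marks crypt base stem cells. RNF43 in RKO non-LRCs was counted 7, 6, 1 and 4 times per library, or 0.526, 0.389, 0.0784 and 0.250 CPM. The other lines held between 228 CPM (HCT15) and 967 CPM (HT55) on average, so RKO was the only one of the 6 in which RNF43 was close to 0. SW948 and SW48 held 469 ± 18.7 and 465 ± 34.0 CPM and did not pass the test (adjusted p = 0.976). ZNRF3, the other ligase of the pair, was read in every line. Its order was SW48 (190.4 ± 18.3 CPM), HCT15 (178 ± 12.6), DLD1 (128 ± 6.25), HT55 (80.5 ± 16.3), SW948 (58.5 ± 4.49) and RKO (22.7 ± 2.45), and only SW48 and HCT15 among neighbors did not pass the test (adjusted p = 0.334). HT55, which held the most RNF43, was thus below SW48, HCT15 and DLD1 for ZNRF3. Per kilobase of exon, RNF43 stood at 153 and ZNRF3 at 11.5 RPKM in HT55 non-LRCs, and at 36.0 and 25.4 RPKM in HCT15 non-LRCs.

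LGR5 separated the lines into a high and a low set. HT55 non-LRCs held 137, 79.6, 158 and 112 CPM, DLD1 46.3, 37, 60.4 and 53.3 CPM and SW948 34.7, 34.6, 35.2 and 32.5 CPM. SW48 was at 3.28, 4.91, 1.71 and 2.61 CPM, HCT15 at 0.177, 0.125, 0.240 and 0 CPM, and RKO had 2 reads in 1 of its 4 non-LRC libraries and 0 in the others. DLD1 and HCT15, which share their patient of origin, differed by 8.39 ± 0.37 log2 units (SE) for LGR5 in non-LRCs. AXIN2 did not pass the test between them in non-LRCs but was 0.78 ± 0.16 log2 units higher in DLD1 in LRCs (adjusted p = 1.73e-04). In LRCs the 4 RKO libraries had 0 reads of LGR5. Against 3 counts over that group, the upper limit that a count of 0 allows, HT55 LRCs (94.5 ± 16.8 CPM) were at least 1908-fold higher.

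NOTUM is a secreted enzyme that strips the lipid from Wnt ligands, and APCDD1 is a membrane protein that binds ligand and receptor. NOTUM ran from 975 CPM in HT55 non-LRCs through HCT15 (98.8 ± 17.1), SW48 (38.4 ± 6.54) and DLD1 (8.34 ± 0.276) to RKO (1.70 ± 0.294) and SW948 (1.24 ± 0.418), and RKO and SW948 did not pass the test (adjusted p = 0.137). SW948 is known for truncated APC and RKO for intact APC, and both lay under 3 CPM. APCDD1 was at 659.6, 753, 741 and 682 CPM in HT55 non-LRCs and at most 1.05 CPM in SW948, 1.04 CPM in SW48 and 0.324 CPM in RKO. In HCT15 non-LRCs it fell into 2 levels, 84.8 and 81.3 CPM in replicates 1 and 2 against 253 and 258 CPM in replicates 3 and 4.

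The last 3 genes encode transcription factors. ASCL2, which maintains crypt stem cells, was highest in DLD1 (197 ± 32.0 CPM in non-LRCs) and HT55 (193 ± 39.2), which did not pass the test (adjusted p = 0.935), then HCT15 (109 ± 40.4), SW948 (24 ± 2.93) and SW48 (6.42 ± 2.0). In RKO it was counted 6 times over the 4 non-LRC libraries. SP5 was highest in HT55 (85.9 ± 16.6 CPM) and lowest in RKO (1.35 ± 0.241 CPM), with DLD1 and SW948 not passing the test against each other (adjusted p = 0.356). TCF7, which encodes TCF1, had the narrowest range, from 144 ± 11 CPM in HT55 and 134 ± 4.98 CPM in SW948 (adjusted p = 0.154 between them) to 26.3 ± 0.976 CPM in RKO. Part of TCF7 overlaps exons of SKP1 on the opposite strand, and NKD1 and NOTUM overlap exons of 1 opposite-strand gene each. Whether counting used strand is not given in the sources used here, so reads from these stretches cannot be assigned with certainty.

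Levels were also set side by side between the CCS1 lines and the other subtypes. With 2 lines of CCS1 and 4 others, no test over lines was made, and the levels are described. In LRCs, the CCS1 libraries lay above all CCS2 and CCS3 libraries for 0 of the 10 genes and below all of them for 0. The nearest was TCF7, with 113 to 156 CPM in the 8 CCS1 LRC libraries and 30.6 to 117 CPM in the 16 others, and in non-LRCs TCF7 was the 1 gene of 10 without overlap. How many of all genes set the CCS1 libraries apart in this way was not counted, so these counts describe the 10 genes only. HT55 and SW948 differed from each other. NOTUM was 1084 ± 155 CPM in HT55 LRCs, the highest of the 6 lines, and 1.14 ± 0.287 CPM in SW948 LRCs, the lowest. AXIN2 in SW948 LRCs (194 ± 19.5 CPM) lay below that in LRCs of SW48, DLD1 and HCT15.

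Over the 12 means of line and population, the genes whose log2 level followed AXIN2 most closely among 11713 searched were FOXQ1 (Pearson's r = 0.999), ID1 (0.997) and FAAH2 (0.997). Those nearest to LGR5 were OPN3 (0.985), TRIM2 (0.974) and MCTP2 (0.973). The 12 means come from 6 lines, and the 2 means of a line are close, so these values describe the levels of 6 lines. Pearson's r gives most weight to a line far from the others, as RKO was for AXIN2. With 11713 genes searched, high values are found for any pattern, and they are given without a test.

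LRCs were then compared with non-LRCs of the same line. In HCT15 most of the genes were lower in LRCs, and the call depended on whether same-numbered samples were taken as pairs. Without pairs, 1 of the 9 genes tested fell (SP5), where 0.977% of all genes passed the test and 0.25% fell. The same-numbered samples of HCT15 deviated together (correlations 0.231 to 0.418). Differently numbered samples within replicates 1 and 2, or within replicates 3 and 4, also did (0.255 to 0.438). These correlations thus do not settle whether equal numbers mark pairs. With the replicate number as a block 7 of 9 genes fell and 0 rose, where 21.3% of all genes passed and 10% fell. The median log2 fold change with the block was -0.55 over the 9 genes and 0.00 over all genes tested. LGR5 had too few reads in HCT15 to be tested.

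**Figure D2:**
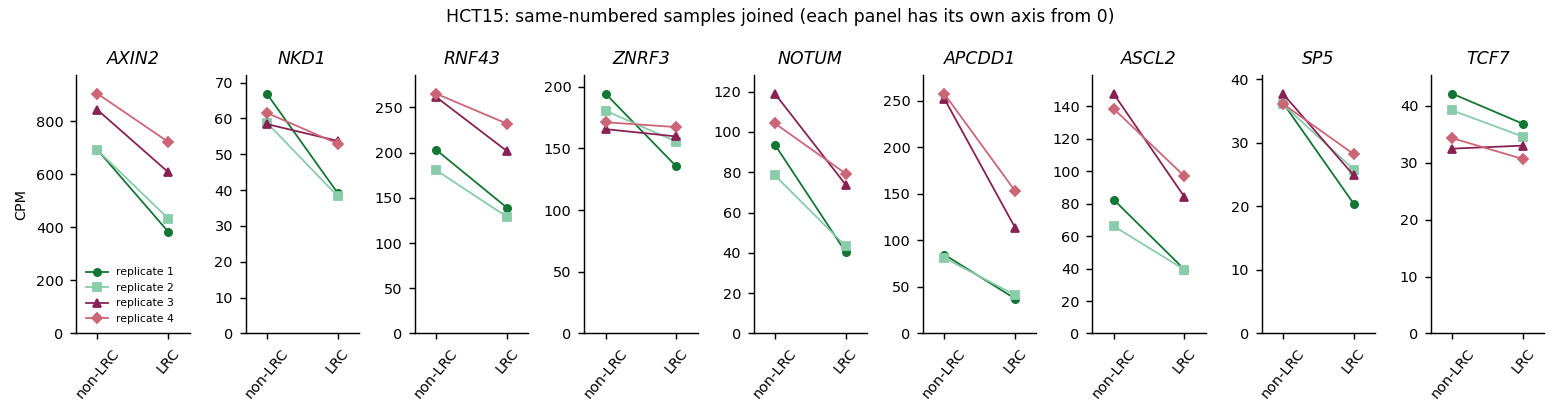
CPM of 9 genes in HCT15 non-LRCs (left) and LRCs (right), with a line joining samples of the same replicate number and a separate vertical axis from 0 in each panel. Every line slopes down for AXIN2, NKD1, RNF43, ZNRF3, NOTUM, APCDD1, ASCL2 and SP5, while that of replicate 3 for TCF7 does not. In both populations replicates 1 and 2 lie below replicates 3 and 4 for AXIN2, RNF43, NOTUM, APCDD1 and ASCL2.

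AXIN2 gave 692, 691, 843 and 904 CPM in the 4 HCT15 non-LRC samples and 383, 433, 608 and 722 CPM in the LRC samples with the same numbers. LRCs were lower in each of the 4 pairs, although replicate 4 of the LRCs lay above replicates 1 and 2 of the non-LRCs (edgeR, log2 fold change -0.56 ± 0.08 (SE), adjusted p = 1.89e-04 with the block, 0.204 without). SP5 was at 36.3, 36.1, 37.8 and 36.2 CPM in non-LRCs and 20.4, 25.8, 24.9 and 28.2 CPM in LRCs. It was one of 2 genes of the 9, with NKD1, whose populations did not overlap (log2 fold change -0.54 ± 0.10 (SE), adjusted p = 0.0442 without the block, 1.96e-04 with it). The share of all genes without overlap in HCT15 was not counted. Without the block the SP5 call was lost when any 1 of 7 of the 8 libraries was left out, all except LRC replicate 4, with adjusted p between 0.0207 and 0.120 over the 8 fits.

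Among the inhibitors, NOTUM was at 93.7, 78.5, 119 and 104 CPM in non-LRCs and 40.3, 43.3, 73.8 and 79.3 CPM in LRCs, 1.70-fold lower with the block (adjusted p = 2.94e-05 with it and 0.151 without). APCDD1 showed the largest difference, 1.99-fold lower with the block (adjusted p = 2.43e-07 with it and 0.373 without). Its LRC to non-LRC ratios in pairs 1 to 4 were 0.442, 0.509, 0.450 and 0.594. The ratio was thus similar in pairs whose levels differed by 3.07-fold between replicates 3 and 4 and replicates 1 and 2. ASCL2 was 1.70-fold lower with the block (adjusted p = 4.53e-06, and 0.306 without), from 82.4, 66.1, 148 and 138 CPM to 39.4, 39.3, 84.1 and 96.9 CPM. NKD1 and RNF43 were 1.33-fold and 1.3-fold lower with the block (adjusted p = 0.00389 and 7.92e-04). ZNRF3 and TCF7 did not pass either test, with log2 fold changes of -0.19 ± 0.07 and -0.11 ± 0.07 (SE, with the block). The summed epithelial markers overlapped between the populations (6647 to 7945 CPM in non-LRCs, 6444 to 7473 CPM in LRCs).

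In DLD1, from the same patient, the genes did not move together. NOTUM rose in LRCs, from 8.42, 8.68, 8.04 and 8.21 CPM to 12.7, 12.3, 13.9 and 12.7 CPM, without overlap between the populations (1.57-fold, edgeR, log2 fold change 0.65 ± 0.09 (SE), adjusted p = 0.00176). The call held when each of the 8 libraries was left out (adjusted p 0.00345 to 0.00966). It was the only one of 10 genes called, where 14.6% of all genes passed the test. Same-numbered samples again deviated together (correlations 0.151 to 0.319), as did differently numbered ones within replicates 1 and 2 or within 3 and 4 (0.140 to 0.216). With the block 3 of 10 genes passed beside 33.8% of all genes, NOTUM and APCDD1 upward and LGR5 downward. LGR5 was at 46.3, 37, 60.4 and 53.3 CPM in non-LRCs and 30.1, 26.9, 44.8 and 41.6 CPM in LRCs, lower in every pair with ratios of 0.650, 0.726, 0.742 and 0.780 (adjusted p = 2.22e-06 with the block, 0.128 without). APCDD1 went from 15.3, 15, 20.2 and 18.4 CPM to 21.5, 16.2, 27.1 and 24.4 CPM (adjusted p = 5.45e-04 with the block, 0.111 without). Left out alone, LRC replicate 2 brought APCDD1 under the threshold without a block (adjusted p = 0.0233). AXIN2, ASCL2, SP5 and TCF7 had log2 fold changes between -0.06 and 0.14, and none of the 4 passed the test.

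**Figure D3:**
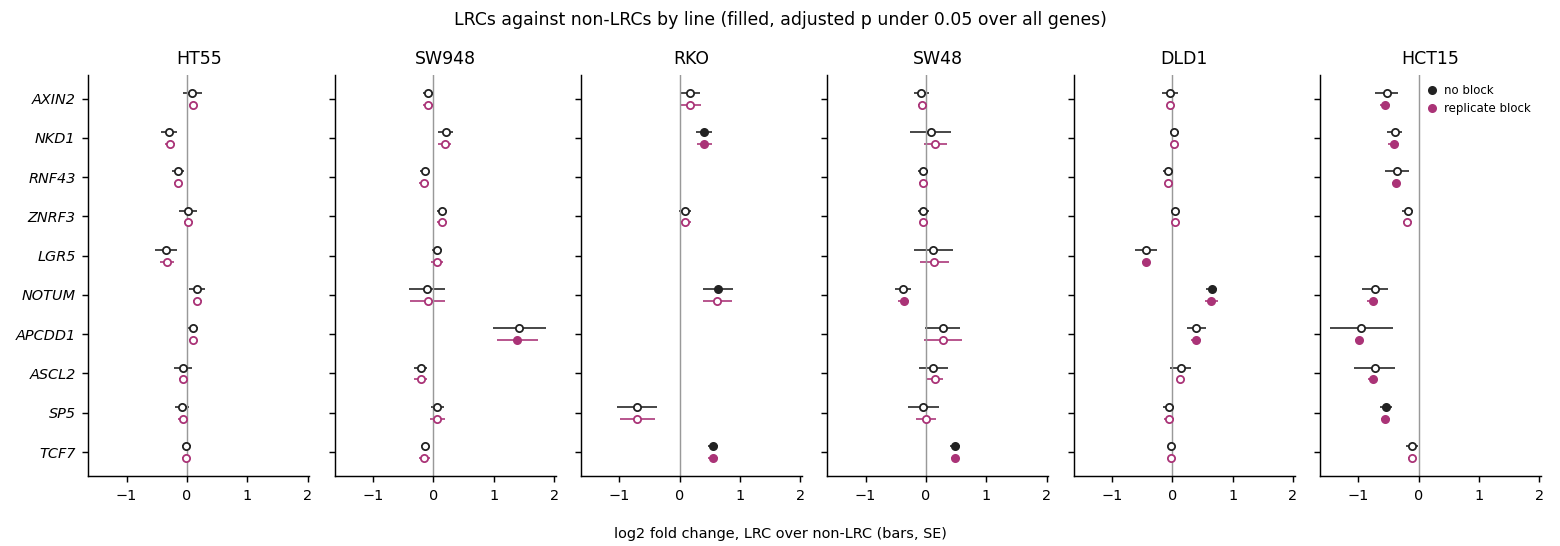
Log2 fold change of LRCs over non-LRCs (horizontal axis, bars are SE) for the 10 genes in each line, from the fit without a block (black) and with the replicate number as a block (magenta), filled where the adjusted p over all genes is under 0.05. HCT15 has 7 filled magenta points left of 0, DLD1 and SW48 have points on both sides, and HT55 has none filled. SW948 has 1 filled magenta point (APCDD1), in a line where same-numbered samples were not taken as pairs. Genes with too few reads in a line are not drawn.

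RKO and SW48, the CCS2 lines, shared a rise of TCF7 in LRCs. In RKO it went from 26.4, 27.2, 26.6 and 24.9 CPM in non-LRCs to 44.6, 35.7, 39.2 and 35.1 CPM in LRCs, with no overlap (1.47-fold, edgeR, log2 fold change 0.55 ± 0.09 (SE), adjusted p = 1.76e-04). In SW48 it went from 86.5, 82.4, 79.0 and 73.5 CPM to 115, 103, 111 and 117 CPM, again with no overlap (1.40-fold, log2 fold change 0.48 ± 0.08 (SE), adjusted p = 0.0210). The RKO call held with each library left out (adjusted p 2.79e-04 to 0.00123). The SW48 call was lost without LRC replicate 1, 3 or 4 or non-LRC replicate 3 or 4, each alone (adjusted p 0.0149 to 0.105 over 8 fits), while the log2 fold change stayed between 0.44 and 0.52. The share of gene reads on mitochondrial genes moved with the sort in both lines, 4.47% to 6.57% in RKO non-LRCs against 7.01% to 10.5% in LRCs, and 9.66% to 11.3% against 13.8% to 14.2% in SW48. Its part in the result was not tested.

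In RKO, 6 of the 10 genes had enough reads to be tested, and 3 of them rose and 0 fell, where 41.5% of all genes passed the test and 20.4% rose. NKD1 went from 10.4, 11.3, 8.07 and 8.64 CPM to 12.7, 13.2, 14.3 and 10.9 CPM (log2 fold change 0.40 ± 0.13 (SE), adjusted p = 0.0188), a call that was lost without LRC replicate 2, non-LRC replicate 3 or non-LRC replicate 4 (adjusted p up to 0.0675). NOTUM, at 2.03, 1.75, 1.72 and 1.31 CPM and 1.86, 3.25, 3.28 and 2.11 CPM, stood at the threshold (log2 fold change 0.63 ± 0.25 (SE), adjusted p = 0.0494). It was lost without replicate 2 or 3 of either population or non-LRC replicate 4 (adjusted p up to 0.152). It also missed the threshold by DESeq2 (0.061), without TMM scaling, without the filter, with either block and with all 48 sorted samples in one fit (0.0892). SP5 had a log2 fold change of -0.70 ± 0.33 (SE) and an adjusted p of 0.0986, on 77 reads in the 4 non-LRC libraries and 49 in the 4 LRC libraries. Without LRC replicate 1 it passed, at 0.0236. AXIN2 and ZNRF3 did not pass (adjusted p = 0.403 and 0.501). Summed epithelial markers moved too, from 217 to 253 CPM to 273 to 324 CPM, and 2 of the 6 tested rose (KRT8 and KRT18). Their part in the result was not tested.

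In SW48 the rise of TCF7 was the only call among 10 genes, where 0.796% of all genes passed. Same-numbered samples deviated together (correlations 0.124 to 0.450), and with the block 2 of 10 passed beside 9.69% of all genes, TCF7 upward and NOTUM downward. NOTUM was at 29.0, 42.9, 38.8 and 42.9 CPM in non-LRCs and 28.3, 33.4, 26.8 and 28.4 CPM in LRCs (adjusted p = 0.0387 with the block, 0.247 without). It was lower in each pair, although the populations overlapped. The other 8 genes had log2 fold changes between -0.08 (AXIN2) and 0.27 (APCDD1).

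In the CCS1 lines no gene passed the test without a block, 0 of 10 in HT55 and 0 of 10 in SW948, where 0% of all genes passed in each (edgeR). At an unadjusted p under 0.05 there were 1005 genes of 13391 in HT55 and 2350 of 13674 in SW948. DESeq2 called 0 and 0 of the 10, beside 0.276% and 1.79% of all genes. Leaving out single libraries changed the edgeR shares, to 3.92% of all genes in HT55 without non-LRC replicate 2 and to 14.5% in SW948 without LRC replicate 4, each of which lay nearer to the other population of its line. Same-numbered HT55 samples deviated together, and with the block 0 of 10 genes passed there, beside 0% of all genes. AXIN2 in HT55 was at 658, 1007, 731 and 631 CPM in non-LRCs and 734, 1015, 749 and 715 CPM in LRCs. Replicate 2 was high in both populations. The largest differences in HT55 were those of LGR5, 137, 79.6, 158 and 112 CPM against 83.1, 88.6, 119 and 86.9 CPM (log2 fold change -0.36 ± 0.18, adjusted p = 0.708), and NKD1 (log2 fold change -0.30 ± 0.13, adjusted p = 0.653, and 0.0288 without non-LRC replicate 2). SW948 showed one gene apart from the rest. APCDD1 was at 0.698, 1.05, 0.388 and 0.643 CPM in non-LRCs and 2.54, 2.30, 2.14 and 0.567 CPM in LRCs, and LRC replicate 4 did not share the higher level of the other 3 (log2 fold change 1.43 ± 0.43 (SE), adjusted p = 0.163, and 0.00123 without LRC replicate 4). AXIN2 in SW948 was at 207 ± 15.6 CPM and 194 ± 19.5 CPM (SD, n = 4).

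Over the 6 lines together, with line as a covariate, 0 of the 10 genes passed the test (edgeR, 48 samples), where 22.9% of all genes did, and 0 of 10 passed by DESeq2 (beside 23.9%). At an unadjusted p under 0.05 there were 5722 of 16603 genes. The smallest adjusted p values were those of SP5 (log2 fold change -0.18 ± 0.07 (SE), adjusted p = 0.0718), RNF43 (log2 fold change -0.14 ± 0.06 (SE), adjusted p = 0.0840) and TCF7 (log2 fold change 0.12 ± 0.05 (SE), adjusted p = 0.0956). Their log2 fold changes were small and differed in sign. Whether the LRC effect differed between lines was tested by 5 interaction terms, and 2 of 10 genes passed, where 14.3% of all genes did. These were TCF7 (adjusted p = 6.43e-07) and NOTUM (adjusted p = 4.1e-04). TCF7 had a log2 fold change of 0.55 in RKO and 0.48 in SW48 and between -0.15 and -0.01 in the other 4. NOTUM stood at 0.65 in DLD1 and 0.63 in RKO but at -0.72 in HCT15 and -0.38 in SW48. Both stayed called with each replicate number left out (adjusted p up to 5.85e-04 and 0.0137). For NKD1 and SP5 the terms passed without replicate 2 (adjusted p = 0.00219 and 0.0408). A fit with the replicate number as a block within each line was also made, and same-numbered samples deviated together in 4 of the 6 lines. In it 2 of 10 genes passed over the lines (RNF43 and SP5, both lower in LRCs), beside 25.5% of all genes, and 9 of 10 passed the test between lines, beside 33.6%.

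The other genes of the pathway, taken from lists of ligands and secretion factors (25 genes), receptors (14), core components (14), nuclear factors (12), antagonists (13) and other targets (24), were tested in the same fits. Over the 6 lines 5 of 15 tested ligand and secretion genes rose and 1 fell, 0 of 14 tested receptors rose and 0 fell, and 2 of 8 tested antagonists rose and 0 fell. WNT7B (0.58 ± 0.13, adjusted p = 7.94e-04), WNT9A (0.83 ± 0.21, adjusted p = 0.00345) and the secreted receptor blockers DKK4 (1.11 ± 0.30, adjusted p = 0.00560) and DKK1 (1.34 ± 0.36, adjusted p = 0.00605) were higher in LRCs on the log2 scale, and WNT8B was lower (-0.89 ± 0.21, adjusted p = 0.00173). Of 23 other targets tested, 4 rose and 1 fell. OLFM4, a second marker of crypt base stem cells, rose (1.32 ± 0.22, adjusted p = 2.41e-05), SMOC2 rose (0.96 ± 0.29, adjusted p = 0.0131) and MYC fell (-0.24 ± 0.07, adjusted p = 0.00800). Core components split into 3 up and 2 down of 14, led by AMER1 (-0.22 ± 0.05, adjusted p = 0.00172), TNKS2 (0.16 ± 0.04, adjusted p = 0.00522) and GSK3B (0.14 ± 0.04, adjusted p = 0.0131), and 2 of 11 nuclear factors rose, BCL9L (0.18 ± 0.05, adjusted p = 0.00219) and TLE4 (0.29 ± 0.10, adjusted p = 0.0249). These counts stand beside 12.2% of all genes that rose and 10.7% that fell.

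RKO held most of the single-line calls outside the 10 genes. There 6 of 15 tested other targets rose and 1 fell, beside 20.4% and 21% of all genes. SOX9, a crypt transcription factor, rose (1.98 ± 0.13, adjusted p = 2.07e-08, on the log2 scale), as did EPHB3 (1.73 ± 0.27, adjusted p = 1.18e-04) and PROX1 (1.23 ± 0.21, adjusted p = 3.02e-04). Among ligand and secretion genes 3 of 7 rose, WNT7B (1.78 ± 0.15, adjusted p = 4.09e-07), WNT11 (0.69 ± 0.12, adjusted p = 3.23e-04) and WLS (0.20 ± 0.06, adjusted p = 0.0168), and 3 of 11 receptors rose, LRP6 (0.47 ± 0.10, adjusted p = 0.00163), FZD4 (0.34 ± 0.11, adjusted p = 0.0258) and FZD7 (0.27 ± 0.10, adjusted p = 0.0362). The nuclear list held 4 that rose and 2 that fell of 10. The corepressors TLE4 (1.04 ± 0.15, adjusted p = 6.16e-05) and TLE2 (0.51 ± 0.09, adjusted p = 2.72e-04) were higher and LEF1, the relative of TCF7, was lower (-0.49 ± 0.09, adjusted p = 4e-04). Core components split evenly, with 4 up and 4 down of 14 (GSK3B 0.41 ± 0.08, adjusted p = 5.45e-04, TNKS 0.34 ± 0.08, adjusted p = 0.00377, CTNNB1 -0.23 ± 0.07, adjusted p = 0.0138), and 0 of 3 antagonists passed. In DLD1 the calls were WNT10A (0.57 ± 0.11, adjusted p = 0.00894), BCL9L (0.20 ± 0.05, adjusted p = 0.0224) and 4 other targets, led by PTK7 (0.45 ± 0.09, adjusted p = 0.00900), ZNF703 (0.34 ± 0.08, adjusted p = 0.0148) and CDK6 (-0.30 ± 0.07, adjusted p = 0.0157). These DLD1 calls stand beside 14.6% of all genes called in that line. SW48 had WNT9A (0.56 ± 0.11, adjusted p = 0.0462), where 0.796% of all genes passed, and HCT15 had TNFRSF19 (-0.68 ± 0.10, adjusted p = 0.0201), where 0.977% passed. In HT55 and SW948 none of these lists had a call without a block, where 0% of all genes passed in each.

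The controls asked what time in spheroid culture and the dye alone do. In the CFSE-loaded libraries labeled DLD1, 8 of the 10 genes rose from day 1 to the late day and 0 fell, where 39.3% of all genes passed the test and 20.2% rose (edgeR). The median log2 fold change was 0.94 over the 10 genes and 0.02 over all genes tested. The day 1 and late libraries did not overlap for these 8 and for TCF7. How many of all genes did not overlap was not counted. The count stayed at 8 with the replicate number as a block (where 42.3% of all genes passed) and without unlabeled day 1 replicate 4 (43.7%), which shares the fit but not the comparison. LGR5 and TCF7 did not pass (adjusted p = 0.326 and 0.396).

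AXIN2 was at 219.7, 229, 287 and 289 CPM in the 4 CFSE-loaded day 1 libraries and 385, 404, 653 and 685 CPM in the late ones (1.97-fold, log2 fold change 0.98 ± 0.26 (SE), adjusted p = 0.00762). APCDD1 changed most, from 1.26, 2.34, 6.22 and 4.45 CPM to 16.9, 19.1, 75.4 and 83.9 CPM (13-fold, log2 fold change 3.70 ± 0.85 (SE), adjusted p = 0.00324). NOTUM went from 5.66, 7.78, 7.38 and 6.34 CPM to 16.3, 16.4, 37.3 and 38.9 CPM (3.81-fold, adjusted p = 0.00215). Replicates 3 and 4 were higher than replicates 1 and 2 on both days for AXIN2 and APCDD1 and on the late day for NOTUM. ASCL2 rose 3.30-fold, NKD1 2.99-fold, SP5 1.86-fold, RNF43 1.63-fold and ZNRF3 1.54-fold (adjusted p between 0.00260 and 0.0110). The SP5 call was lost without CFSE day 1 replicate 2 (adjusted p = 0.0523).

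**Figure D4:**
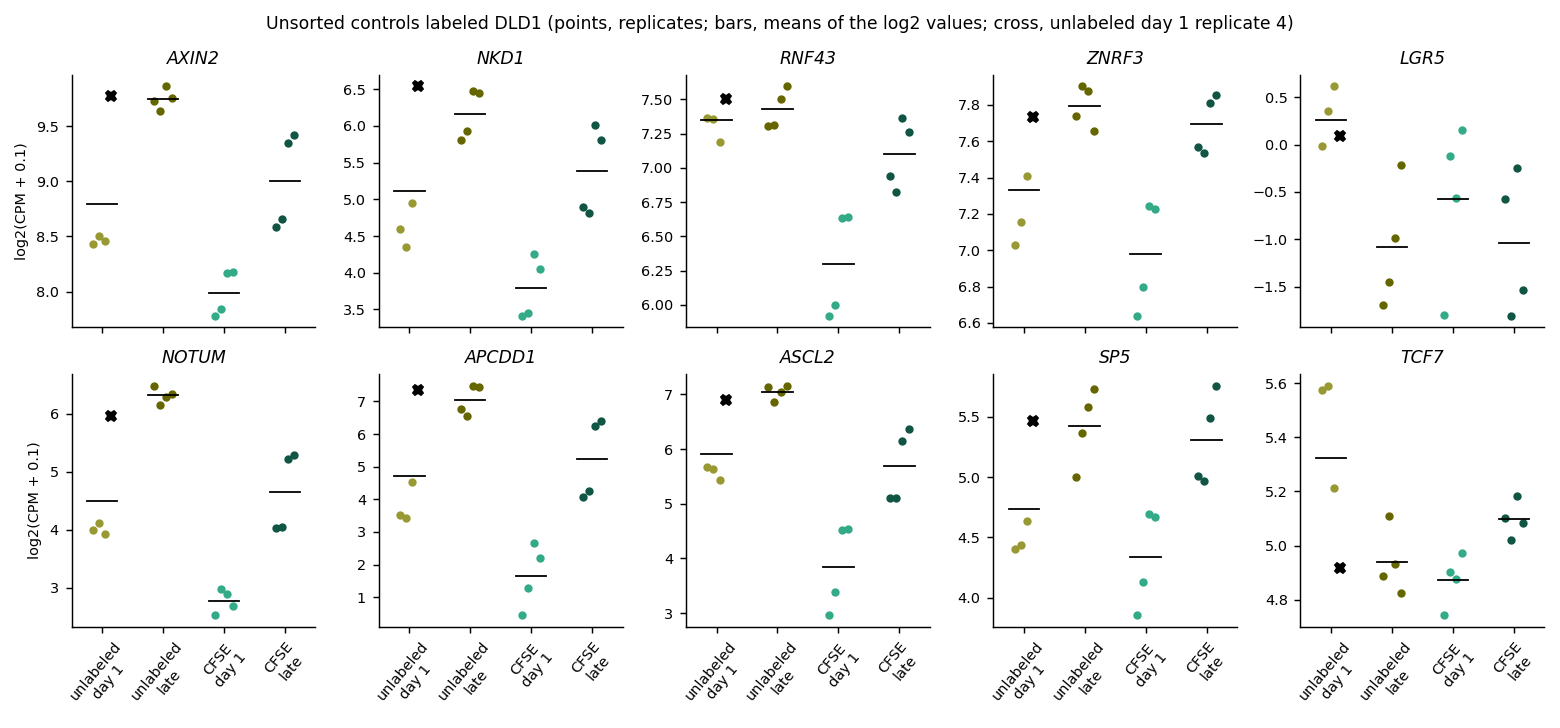
Levels of the 10 genes as log2(CPM + 0.1) in the 16 unsorted libraries labeled DLD1, one panel per gene with its own vertical axis, by dye and day, with 4 replicates as points and a bar at the mean of the log2 values. The cross is unlabeled day 1 replicate 4, which lies with the unlabeled late libraries for AXIN2, NKD1, APCDD1, ASCL2 and SP5 and between the groups for NOTUM.

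In the unlabeled libraries 4 of 10 genes passed, where 25.5% of all genes did, and without day 1 replicate 4 the count was 9 of 10, 7 up and 2 down, beside 42.1% of all genes. AXIN2 was at 345, 364, 352 and 877 CPM on day 1 and 849.6, 798, 934 and 867 CPM on the late day, and the day 1 value of replicate 4 alone lay among the late ones (adjusted p = 0.0350 with it, 1.92e-04 and 2.24-fold higher late without it). NOTUM was at 15.8, 17.2, 15 and 62.4 CPM and 89.0, 71.0, 78.3 and 80.4 CPM (2.83-fold, adjusted p = 0.0150, and 4.58-fold, adjusted p = 2.35e-05, without replicate 4). APCDD1 was at 11.4, 10.6, 22.9 and 163 CPM and 108, 93.4, 178 and 174 CPM (adjusted p = 0.159 with replicate 4, 6.26e-04 without). With all 4 day 1 libraries, the calls of AXIN2, TCF7, LGR5 and NOTUM were each lost when single other unlabeled libraries were left out, day 1 replicates 1 to 3 for AXIN2, NOTUM and LGR5, day 1 replicates 1 and 2 for TCF7, late replicates 1 to 3 for AXIN2 and LGR5 and late replicates 1 and 3 for TCF7 (adjusted p up to 0.119). ASCL2 and ZNRF3 passed without unlabeled day 1 replicate 4 and also without CFSE day 1 replicate 1, a library that shares the fit only. Over all 16 fits their lowest adjusted p values (edgeR) were 0.00566 and 0.0202.

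TCF7 and LGR5 went down with time in the unlabeled libraries. TCF7 was at 47.5, 48.1, 37 and 30.1 CPM on day 1 and 29.5, 34.5, 30.4 and 28.3 CPM late (log2 fold change -0.45 ± 0.13 (SE), adjusted p = 0.0253), and the CFSE-loaded libraries were slightly higher on the late day without passing the test (26.7, 29.8, 29.3 and 31.3 CPM and 34.3, 32.3, 36.3 and 33.8 CPM). Its dye by time term had an adjusted p of 0.125 and, without unlabeled day 1 replicate 4, of 0.00727, as the 1 gene of 10 called where 6.09% of all genes passed. LGR5 was near the limit of detection, with 0.891, 1.17, 1.43 and 0.969 CPM on day 1 and 0.210, 0.267, 0.407 and 0.764 CPM late (log2 fold change -1.44 ± 0.49 (SE), adjusted p = 0.0401), from 79 and 26 reads in all.

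On day 1, 7 of 10 genes were lower in CFSE-loaded than in unlabeled libraries and 0 higher, where 21.8% of all genes passed and 12% were lower. Without unlabeled day 1 replicate 4 it was 5 of 10 beside 18% of all genes. RNF43 was at 60.5, 63.7, 99.2 and 99.6 CPM with the dye and 165, 164, 145 and 181 CPM without (1.98-fold lower, adjusted p = 0.00149, and 0.00321 without that library). ASCL2 was at 7.67, 10.3, 22.8 and 23.3 CPM and 50.6, 49.6, 42.9 and 119 CPM (3.98-fold lower, adjusted p = 0.00336, and 2.99-fold, adjusted p = 0.00830, without it). The 5 genes that kept their call in both fits were TCF7, RNF43, APCDD1, ASCL2 and NOTUM, and their groups did not overlap except for TCF7. The share of all genes without overlap on day 1 was not counted. AXIN2 and NKD1 lost their calls without unlabeled day 1 replicate 4 (adjusted p = 0.0732 and 0.0627), and also without CFSE day 1 replicate 1 or 2 (adjusted p up to 0.0824 and 0.0633). LGR5, ZNRF3 and SP5 did not pass on day 1 (adjusted p = 0.270, 0.136 and 0.284). TCF7 lost its call without CFSE day 1 replicate 1 or 2 or unlabeled day 1 replicate 1 or 2 (adjusted p up to 0.0897).

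On the late day 1 of 10 genes passed, NOTUM, where 5.13% of all genes did. It was at 16.3, 16.4, 37.3 and 38.9 CPM with the dye and 89.0, 71.0, 78.3 and 80.4 CPM without (2.92-fold lower, log2 fold change -1.55 ± 0.39 (SE), adjusted p = 0.0325), and the libraries did not overlap. The call was lost without CFSE late replicate 1 or 2 or unlabeled late replicate 1, 3 or 4 (adjusted p up to 0.137). When unlabeled day 1 replicate 4 was left out of the shared fit, 4 of 10 passed beside 13.3% of all genes, AXIN2, APCDD1 and ASCL2 with NOTUM (adjusted p between 0.00119 and 0.0492). ASCL2 also passed without CFSE day 1 replicate 1 or CFSE late replicate 4. LGR5 and TCF7 had log2 fold changes above 0 with the dye on the late day (0.09 and 0.16), which did not pass. No gene passed the dye by time test with all 16 libraries, 0 of 10 beside 0.999% of all genes (edgeR, with 2474 of 14518 genes at an unadjusted p under 0.05). DESeq2 called 0 of 10, beside 4.24% of all genes. The comparisons of time and dye share their groups and are not independent of each other.

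Other measures moved with the control groups. The 9 epithelial markers summed to 4795 to 6344 CPM in CFSE-loaded day 1 libraries and 6790.3 to 8776 CPM late, and to 6093 to 6888 and 7441 to 8543 CPM in the unlabeled ones. With time 6 of 9 rose in the CFSE-loaded libraries, where 20.2% of all genes rose. In the unlabeled libraries 5 of 9 rose, where 12.4% of all genes did. Reads outside genes made up 12.1% to 14.8% and 5.20% to 7.31% of reads in the CFSE-loaded groups and 8.96% to 13.6% and 5.19% to 8.35% in the unlabeled ones, without overlap between days. The part of these measures in the results was not tested. The stroma, vessel and blood cell markers summed to at most 6.45 CPM in any control library, with COL1A2, COL3A1, DCN, CDH5, PTPRC and CD3E each under 1 CPM in every control group.

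Of the other Wnt genes, 7 of 13 tested receptors rose and 1 fell with time in the CFSE-loaded libraries, led by FZD6 (0.94 ± 0.20, adjusted p = 0.00195), FZD2 (0.80 ± 0.18, adjusted p = 0.00292) and LGR6 (1.65 ± 0.43, adjusted p = 0.00730) on the log2 scale. Among other targets 7 of 20 rose and 2 fell, led by TNFRSF19 (1.99 ± 0.26, adjusted p = 9.97e-05), FGF20 (2.17 ± 0.37, adjusted p = 5.64e-04) and CD44 (1.42 ± 0.27, adjusted p = 0.00100). WLS, which carries Wnt ligands to the cell surface, rose (1.21 ± 0.19, adjusted p = 2.95e-04), as did WNT10A (1.36 ± 0.29, adjusted p = 0.00196) and WNT4 (2.22 ± 0.54, adjusted p = 0.00445). KREMEN1 rose (1.37 ± 0.17, adjusted p = 7.49e-05) while NKD2 (-0.88 ± 0.18, adjusted p = 0.00189) and DKK1 (-2.02 ± 0.59, adjusted p = 0.0129) fell. Core components split into 3 up and 5 down of 14, with TNKS2 (-1.72 ± 0.22, adjusted p = 9.97e-05) and DVL1 (-1.01 ± 0.15, adjusted p = 2.23e-04) lower and CTNNB1, which encodes β-catenin, higher (0.50 ± 0.11, adjusted p = 0.00223). Nuclear factors gave 2 up and 3 down of 11, with CTNNBIP1 (0.60 ± 0.11, adjusted p = 8.38e-04) and LEF1 (0.80 ± 0.17, adjusted p = 0.00212) higher and BCL9L lower (-0.88 ± 0.18, adjusted p = 0.00174). In the unlabeled libraries the receptors gave 5 up and 0 down of 13 with time, and the other targets 6 up and 1 down of 20, beside 12.4% and 13.1% of all genes. The CFSE-loaded counts stand beside 20.2% of all genes that rose and 19.1% that fell.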

How the data were processed

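RNA was sequenced in 64 samples (single-end reads). The authors deposited whole-number read counts per Ensembl gene on hg19, and their processing notes name TopHat, HTSeq and DESeq. The strand setting of the counting and the tool versions are not given in the sources used here. Reads outside genes, 5.19% to 14.8% per sample, were left out of library sizes. Tests covered genes that reached 10 counts in 4 or more libraries of a fit, with edgeR 4.0.16 (quasi-likelihood F test, TMM scaling, R 4.3.3), and p values were adjusted over all genes tested (Benjamini-Hochberg, threshold 0.05). SE is the log2 fold change divided by the square root of F. The 4 control comparisons and the dye by time term share 1 fit of 16 libraries. CPM used TMM factors over all 64 samples, and RPKM the exon length in the GENCODE annotation lifted to GRCh37. Depth limits the precision of low genes such as LGR5 in RKO, and limits at 0 counts cover counting error only.

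Same-numbered samples were treated as pairs where every correlation of their deviations from group means was over 0.1, which held for HT55 (0.141 to 0.386), SW48, DLD1, HCT15 and CFSE-loaded time (0.123 to 0.232). DESeq2 1.42.0, other filters, a replicate block and leaving out each library were alternatives. The code was tested on simulated data. The genes, lists and tests were chosen with earlier results of these data known. The genes named in the text are the 10 members and, from the lists, those with the smallest adjusted p per comparison. The level of 1 cell type marker is not reported here.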

Additional observations from a re-analysis of the deposited data

Results flagged for a closer look

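In groups of 4 libraries, 1 library was set apart from the other 3 where its gap to the nearest of them exceeded Dixon's critical value for that many samples, as a share of the group's range. This was the case in 17 of 160 combinations of gene and group. The critical value is set to flag about 1 in 20 groups of independent values. The genes of a group share their libraries, so that rate does not apply directly, and the share over all genes was not counted. The unlabeled day 1 group of the libraries labeled DLD1 held 6 of the 17, all with replicate 4 high, with gaps of 0.964 of the range for AXIN2, 0.856 for NKD1, 0.955 for NOTUM, 0.920 for APCDD1, 0.899 for ASCL2 and 0.836 for SP5. In HT55, AXIN2 (0.887) and LGR5 (0.848) were set apart in LRCs, and NKD1 (0.849) and ZNRF3 (0.934) in non-LRCs. SW48 had NKD1 (0.971) in LRCs and RNF43 (0.852) and SP5 (0.956) in non-LRCs. The others were RNF43 in RKO LRCs (0.852), LGR5 in RKO non-LRCs (1, where 1 library had 2 reads and the others 0), ZNRF3 in SW948 non-LRCs (0.843) and SP5 in HCT15 non-LRCs (0.865).

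The difference between LRCs and non-LRCs itself differed between lines for 2 of the 10 genes by the interaction test (edgeR), where 14.3% of all genes passed. The adjusted p was 6.43e-07 for TCF7 and 4.1e-04 for NOTUM. TCF7 was higher in LRCs of RKO and SW48, and its SW48 call was lost when some single libraries were left out (edgeR, adjusted p up to 0.105). NOTUM was higher in LRCs of DLD1, stood at the threshold in RKO (adjusted p = 0.0494) and did not pass in HCT15 without a block (adjusted p = 0.151).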

How the results depend on the processing

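None of the 26 member results that passed a test changed sign under an alternative. Fold changes of genes that did not pass did cross 0: with single libraries left out, the log2 fold change in DLD1 ran from -0.12 to 0.04 for AXIN2 and from -0.01 to 0.27 for ASCL2. LGR5 in RKO, HCT15 and the controls, ASCL2, RNF43 and APCDD1 in RKO, and APCDD1 in SW948 and SW48 were limited by depth. The cause of each change below was not tested, except where fewer genes or samples entered by construction. Each count of genes called is followed by the share of all genes called in that fit.

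With DESeq2 the count was 2 in HCT15 (3.77%), 4 for the LRC effect between lines (20.3%) and 2 for dye on the late day (10.5%). Without a filter on low counts it was 1 in SW948 (3.6%), 3 in DLD1 (7.71%), 2 in HCT15 (1.26%), 6 for the LRC effect between lines (7.86%) and 2 for dye on the late day (3.41%). With at least 10 counts in every sample it was 1 over the lines (TCF7 higher, 30.3%), 2 for dye on the late day (6.41%) and 6 for the level between lines (99.4%), where only 6 genes were left to test. With all 48 sorted samples in one fit it was 1 in RKO (26.4%) and 5 in HCT15 (4.2%). Over the lines the direction depended on the lines kept. It was 2 without SW948 (TCF7 higher, SP5 lower, 19.5%), 1 without RKO (RNF43 lower, 14.6%), 1 without SW48 (SP5 lower, 21.4%) and 2 without HCT15 (TCF7 and APCDD1 higher, 23.2%), and the median log2 fold change of the 10 genes went from -0.08 to 0.02 without HCT15.

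With the replicate number as a block the count was 1 in SW948 (3.66%), 2 in SW48 (9.69%), 3 in DLD1 (33.8%), 7 in HCT15 (21.3%), 2 over the lines (RNF43 and SP5 lower, 25.5%), 9 for the LRC effect between lines (33.6%), 9 for time in unlabeled libraries (30%) and 4 for dye on the late day (10.4%), and it moved no other count by over 1.5 times. In SW948, RKO, unlabeled time and both dye comparisons at least 1 pair had a correlation under 0.1, so same-numbered samples were not taken as pairs there. A low correlation does not show that such samples came from separate cultures. In each of these comparisons at most 2 of the 4 pairs correlated best with their own number. The same was the case for DLD1 and CFSE-loaded time, where pairs were used. Replicates 1 and 2 against 3 and 4 as a block, chosen after seeing the data, gave 3 in DLD1 (31.5%), 7 in HCT15 (19.1%), 9 for unlabeled time (34.7%), 5 for dye on the late day (13.5%) and 1 for dye by time (3.71%). The replicate block without unlabeled day 1 replicate 4, also chosen after seeing the data, gave 9 for unlabeled time (46.2%), 5 for dye on the late day (17.8%) and 2 for dye by time (9.31%).

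Leaving out 1 replicate at a time gave 0 to 1 in HT55 (0% to 3.92%), 0 to 1 in SW948 (0% to 14.5%) and 1 to 4 in RKO (34% to 40.5%). It gave 0 to 1 in SW48 (0.161% to 1.39%), 1 to 2 in DLD1 (7.13% to 13.2%) and 0 to 1 in HCT15 (0% to 1.68%). The count was 0 over the lines (13.7% to 18%), 2 to 4 for the LRC effect between lines (3.2% to 17.4%) and 10 for the level between lines (97% to 98.2%). For time it was 0 to 9 in unlabeled (6.68% to 42.1%) and 7 to 8 in CFSE-loaded libraries (29.2% to 43.7%). For dye it was 4 to 7 on day 1 (9.41% to 25.7%), 0 to 4 on the late day (0% to 13.3%) and 0 to 1 by time (0.111% to 6.09%).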
